A study of Mus musculus with 21 samples.

Results

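Bex1, Bex2, Bex4, Kif5c, Gldn, Akr1c18 and Pnpla5 are 7 genes that were picked because their signal was high in chemically induced mouse liver tumours. They were found by gene name among the non-control probes of the arrays, and all 7 passed the filter on dim probes, out of 23736 genes tested. That filter counts arrays of all groups together, DEN tumours included, so a gene that passed was not always measured in the groups compared. Gldn was well above background on 7 DEN tumour, 2 KO tumour, 0 KO liver and 1 WT liver arrays. The members were chosen by their array levels in DEN tumours against WT livers and KO tumours, so those 2 comparisons are given below as descriptions without a test. The comparisons that hold no DEN tumour array were tested, although KO tumours and WT livers also enter the comparisons behind the choice.

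The study set 2 kinds of mouse liver tumour beside liver of the matching genotypes on one-colour Agilent arrays, all from mice of the C57BL/6J strain. KO tumours were liver tumours of untreated mice with a Trp53 knockout genotype, labelled HCC/CCC (hepatocellular and cholangiocellular carcinoma), on 6 arrays from 5 mice. That label does not say whether a single tumour held both types. DEN tumours were hepatocellular carcinomas of mice with wild-type Trp53 that had received N-nitrosodiethylamine (DEN), a carcinogen that alkylates DNA after activation in hepatocytes, intraperitoneally at 10 µg per g body weight on day 15, on 7 arrays from 5 mice. KO livers came from untreated mice of the knockout genotype (4 mice) and WT livers from untreated wild-type mice (4 mice). The labels used here do not give sex, age at tumour collection, the deleted part of Trp53 or the cells in which it was deleted, nor do they tie any tumour to a liver sample. Arrays whose titles share a mouse number were taken as tumours of the same mouse and averaged, so n counts mice.

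The BEX genes (brain-expressed, X-linked) encode small adaptor proteins, of which Bex1 and Bex3 bind the neurotrophin receptor p75NTR, and they lie on the X chromosome among the related TCEAL genes. Kif5c encodes a heavy chain of kinesin-1, the motor that carries cargo along microtubules, and is known mainly from neurons. Gliomedin, the product of Gldn, is an olfactomedin-domain protein of Schwann cells that gathers sodium channels at nodes of Ranvier. Akr1c18 encodes the aldo-keto reductase that inactivates progesterone in the mouse ovary, and Pnpla5 encodes a patatin-like triglyceride lipase. None of the 7 is used as a marker of normal hepatocytes.

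Each gene was read by 1 probe of 60 bases, except Bex1 with 2. The Bex probes are shown because the 3 genes are near relatives and their older names cross in RefSeq's synonyms, and the Akr1c18 probe because its gene sits in a cluster of close paralogs. The middle 30 bases of each probe, in mm9 coordinates as the arrays give them, are:
Bex1, chrX:132748567-132748596, minus strand: taattcttttgttagcagaatttatcaatt
Bex2, chrX:132601252-132601281, minus strand: ttgtaatatttctggtgtcacttgtttccc
Bex4, chrX:132674825-132674854, plus strand: tttctgtaaacttttggtgtttccacttaa
Akr1c18, chr13:4131910-4131939, minus strand: caactcacccccagttaattcaataaattt
The longest run of letters shared by any pair of the Bex probes was 7 bases, and the Akr1c18 probe shared at most 7 bases with a probe of another Akr1c gene. Against every other non-control probe of the array, on either strand, no member probe shared a run of 20 bases, and the longest shared run was 15 bases. The probe of Kif5c lay at chr2:49630228-49630287, that of Gldn at chr9:54189513-54189572 and that of Pnpla5 at chr15:83943051-83943110. The second Bex1 probe had no genome position in the files and starts at base 240 of its transcript, against base 765 for the first.

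The promoters of Bex1 and Bex4 were alike almost letter for letter, although the probes were not. In RefSeq's promoter windows on GRCm38.p6, 250 bases before to 50 bases after the start of the gene, Bex1 and Bex4 shared an unbroken run of 271 bases and were identical at 288 of 294 aligned positions. Bex2 shared no run longer than 9 bases with either. All 7 genes had an entry in that table. The stretch from 100 bases before to 30 bases after the start is printed for Bex1, Bex4 and Tceal5, the relative with the largest difference in DEN tumours, with the letters CACGTG in capitals, and for Kif5c with the letters TGACGTCA in capitals:
Bex1, chrX:136215484-136215613, minus strand: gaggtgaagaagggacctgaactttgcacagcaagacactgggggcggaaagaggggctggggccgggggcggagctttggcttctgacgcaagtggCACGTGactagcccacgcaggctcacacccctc
Bex4, chrX:136138896-136139025, plus strand: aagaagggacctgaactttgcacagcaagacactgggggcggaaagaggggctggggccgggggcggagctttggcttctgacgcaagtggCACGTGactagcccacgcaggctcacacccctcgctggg
Tceal5, chrX:136203855-136203984, minus strand: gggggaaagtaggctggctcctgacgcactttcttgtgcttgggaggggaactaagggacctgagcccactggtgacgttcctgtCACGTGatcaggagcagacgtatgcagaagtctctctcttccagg
Kif5c, chr2:49619186-49619315, plus strand: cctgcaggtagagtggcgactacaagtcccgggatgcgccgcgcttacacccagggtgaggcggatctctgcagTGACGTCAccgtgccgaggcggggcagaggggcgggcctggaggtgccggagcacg
CACGTG, TGACGTCA and the 3 motifs spelled out below were searched on both strands, and they were chosen after the sequences had been read. CACGTG was held by 9 of the 12 BEX and TCEAL genes with an entry, and by 7.15% of all 32851 promoter windows in the table. Among the 7 members it was in the windows of Bex1, Bex4 and Pnpla5. TGACGTCA was in the window of Kif5c alone among the members and in 1.79% of all windows, and TGANTCA in that of Gldn alone and in 7.81% of all windows. GGGCGG was in all 7 members' windows and in 35.66% of all windows. TATAAA was in those of Kif5c and Bex2 and in 13.62% of all windows. These matches describe letters and say nothing of which factor binds there.

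Levels below are log2 of the processed signal minus the array's 75th percentile of all non-control probes, so 0 means as bright as that percentile. They compare arrays for 1 probe and do not rank genes against each other. "Well above background" is the scanner software's own mark. In bulk tissue, a lower level can come from fewer cells of a type or from less RNA per cell, and these cannot be told apart here.

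The Trp53 probe averaged -4.71 ± 0.47 in KO tumours, -2.65 ± 0.11 in DEN tumours, -5.57 ± 0.75 in KO livers and -3.57 ± 0.26 in WT livers (SD; n = 5, 5, 4 and 4 mice), lower in both knockout groups; whether the probe lies in the deleted part is not known, since the labels do not give that part. Replicate arrays of a group correlated at 0.931 or more over all probes. The 75th percentile of processed intensity ran from 951 to 4258 on KO tumour arrays and from 476 to 884 on the others, and the number of mice limits the precision of every difference.

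**Figure D1:**
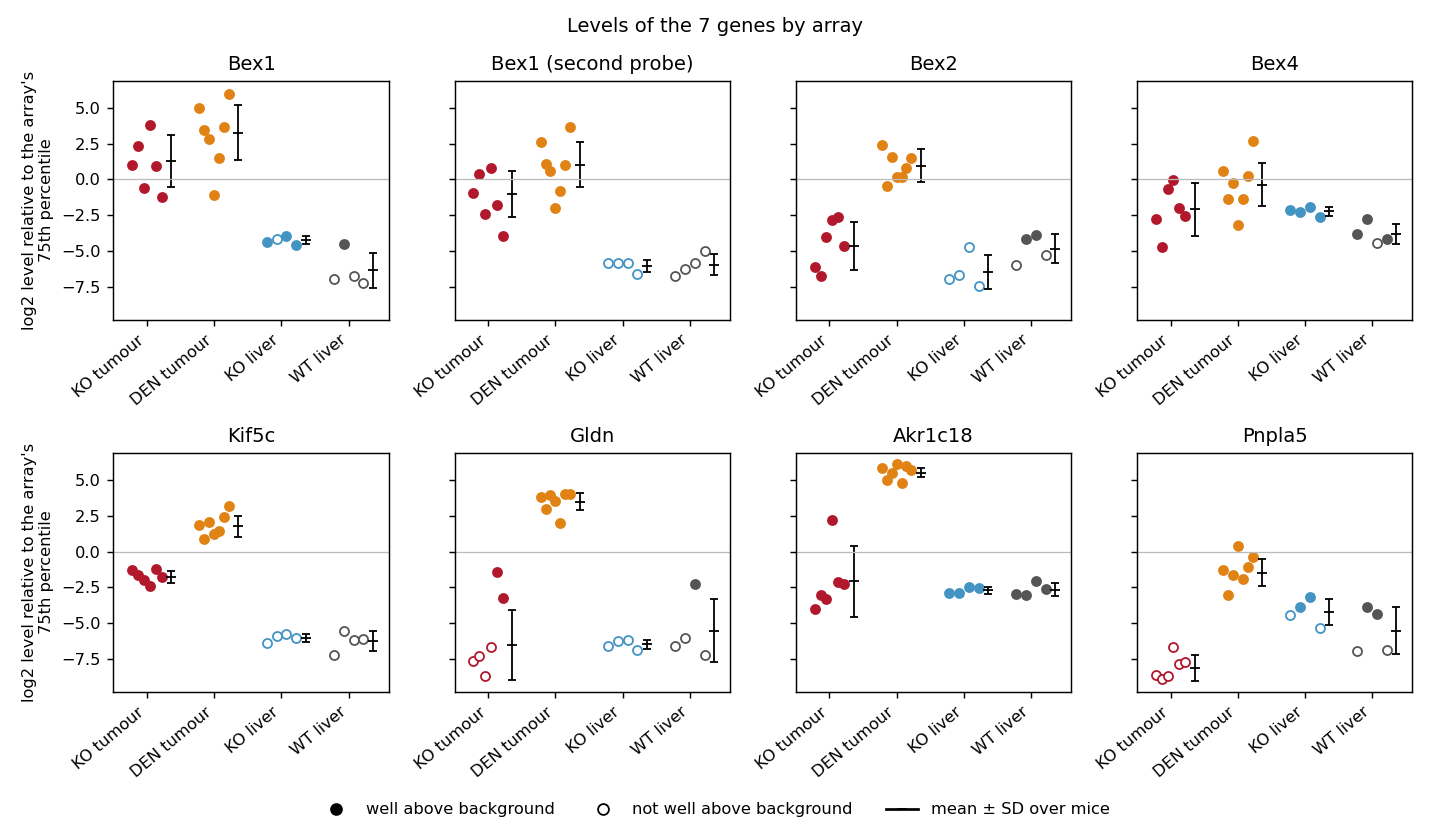
Each point is 1 array (y axis, log2 level relative to the array's 75th percentile, for each of the 8 probes of the 7 genes); filled points were well above background and open points were not, and black bars give the mean ± SD over mice. All 7 DEN tumour arrays were well above background for every probe, whereas Pnpla5 was so on no KO tumour array and Kif5c on no liver array.

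Bex1 was bright in both kinds of tumour. On the first probe its level was -1.25 at the lowest, 0.97 at the median and 3.77 at the highest on the 6 KO tumour arrays, and -1.07, 3.43 and 5.93 on the 7 DEN tumour arrays. The 4 KO livers read -4.34, -4.13, -3.94 and -4.61, and the 4 WT livers read -6.95, -4.52, -6.73 and -7.21. No tumour array overlapped a liver array, while the KO and DEN tumours overlapped each other widely. The probe was well above background on 6 of 6 KO tumour, 7 of 7 DEN tumour, 3 of 4 KO liver and 1 of 4 WT liver arrays. The second Bex1 probe gave the same order of tumours over livers, with means of -1.01 ± 1.64 in KO tumours, 1.04 ± 1.59 in DEN tumours, -6.03 ± 0.40 in KO livers and -5.96 ± 0.73 in WT livers (SD; n = 5, 5, 4 and 4 mice), and was well above background on none of the 8 liver arrays.

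Bex2 was bright in DEN tumours and dim elsewhere. Its level on the KO tumour arrays was -6.72 at the lowest, -4.33 at the median and -2.64 at the highest, against -0.47, 0.79 and 2.41 on the DEN tumour arrays, which therefore did not overlap. KO livers read -6.95, -6.66, -4.71 and -7.41, and WT livers read -5.97, -4.17, -3.85 and -5.30. The KO tumours overlapped both livers, and the probe was well above background on 0 of 4 KO liver and 2 of 4 WT liver arrays.

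Bex4 overlapped between most groups. It read -4.72 at the lowest, -2.28 at the median and -0.02 at the highest on the KO tumour arrays, and -3.19, -0.26 and 2.72 on the DEN tumour arrays. KO livers read -2.10, -2.25, -1.90 and -2.61, and WT livers read -3.84, -2.79, -4.41 and -4.17. The DEN tumours overlapped the WT livers through 1 array of each, and the KO tumours spanned the whole range of the KO livers.

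Kif5c formed 3 steps with no overlap between them. The KO tumour arrays read -2.37 at the lowest, -1.73 at the median and -1.21 at the highest, and the DEN tumour arrays 0.85, 1.83 and 3.19. KO livers read -6.41, -5.91, -5.77 and -6.05 and WT livers -7.21, -5.54, -6.20 and -6.12. No liver array was well above background, and the 2 kinds of liver overlapped. The spread between mice was small, with an SD of 0.42 in KO tumours and 0.74 in DEN tumours (n = 5 mice each).

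Gldn was bright on every DEN tumour array and near or below background on most others. The DEN tumours read 1.96 at the lowest, 3.78 at the median and 3.99 at the highest, and the KO tumours -8.70, -6.97 and -1.41. Only the 2 KO tumours of mouse 5, at -1.41 and -3.21, were well above background. KO livers read -6.58, -6.26, -6.15 and -6.84, all not well above background. WT livers read -6.59, -6.02, -2.28 and -7.20, of which the array at -2.28 alone was well above background.

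Akr1c18 was measured on all 21 arrays. The DEN tumours lay close together, at 4.79, 5.67 and 6.11 for the lowest, median and highest array, with a mean of 5.52 ± 0.33 (SD, n = 5 mice). The KO tumours read -4.04 at the lowest, -2.65 at the median and 2.20 at the highest. The value of 2.20 belonged to mouse 4, and the other 5 KO tumour arrays lay at or below -2.10. KO livers read -2.90, -2.91, -2.47 and -2.54, and WT livers -2.95, -3.01, -2.07 and -2.61, so the 2 kinds of liver overlapped.

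Pnpla5 was bright in DEN tumours and not well above background on any KO tumour array. The KO tumours read -8.88 at the lowest, -8.24 at the median and -6.70 at the highest, none of them well above background, and the DEN tumours -3.03, -1.28 and 0.42. KO livers read -4.46, -3.85, -3.16 and -5.32, and WT livers -6.97, -3.89, -4.38 and -6.86, with 2 of 4 arrays of each well above background. DEN tumours were above all liver arrays, while WT livers overlapped both KO livers and KO tumours.

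Set against WT livers, the DEN tumours were higher for all 7 genes by value, with a median log2 difference of 8.04 against 0.04 over all 23736 genes tested. The difference was 9.61 for Bex1, 9.01 for Gldn, 8.18 for Akr1c18, 8.04 for Kif5c, 5.78 for Bex2, 4.04 for Pnpla5 and 3.44 for Bex4. Since no WT liver array measured Kif5c, its fold is a bound. It was at least 123-fold higher in DEN tumours if the livers are set to the lowest signal marked well above background on each array. That signal averaged -5.17 in WT livers, yet Bex4 was not so marked on the WT liver array at -4.41. A gene that is not marked may lie above that signal, so this bound and the later ones hold only for that choice. Bex1 and Gldn were well above background on 1 WT liver array each, and Bex2 and Pnpla5 on 2 each. In 6 of the 7 genes all DEN tumour arrays lay above all WT liver arrays, which 7.87% of all genes did. These values restate the choice of the genes, and the WT livers alone made up 1 slide and 1 scan day, so that slide, day and group cannot be told apart.

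Against the same DEN tumours, the KO tumours were lower for all 7 genes by value, with a median of -5.63 against -0.33 over all genes. The difference was -10.00 for Gldn, -7.59 for Akr1c18, -6.64 for Pnpla5, -5.63 for Bex2, -3.54 for Kif5c, -1.98 for Bex1 and -1.72 for Bex4. Pnpla5 was at least 28.7-fold lower in KO tumours, a bound because no KO tumour array measured it. Gldn was well above background on only 2 of 6 KO tumour arrays, both of mouse 5. The KO tumours of the other mice read -6.67 or lower and were not well above background, so -10.00 is no measured size. Arrays of the tumour groups overlapped for Bex1 and Bex4, while for the other 5 genes every KO tumour array lay below every DEN tumour array, as did 16.4% of all genes. By the limma test 57.2% of all genes differed between the tumours. Both comparisons share the DEN tumour arrays. Within scan day 1, which held 3 arrays of each tumour group, the median difference of the 7 genes was -6.99.

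**Figure D2:**
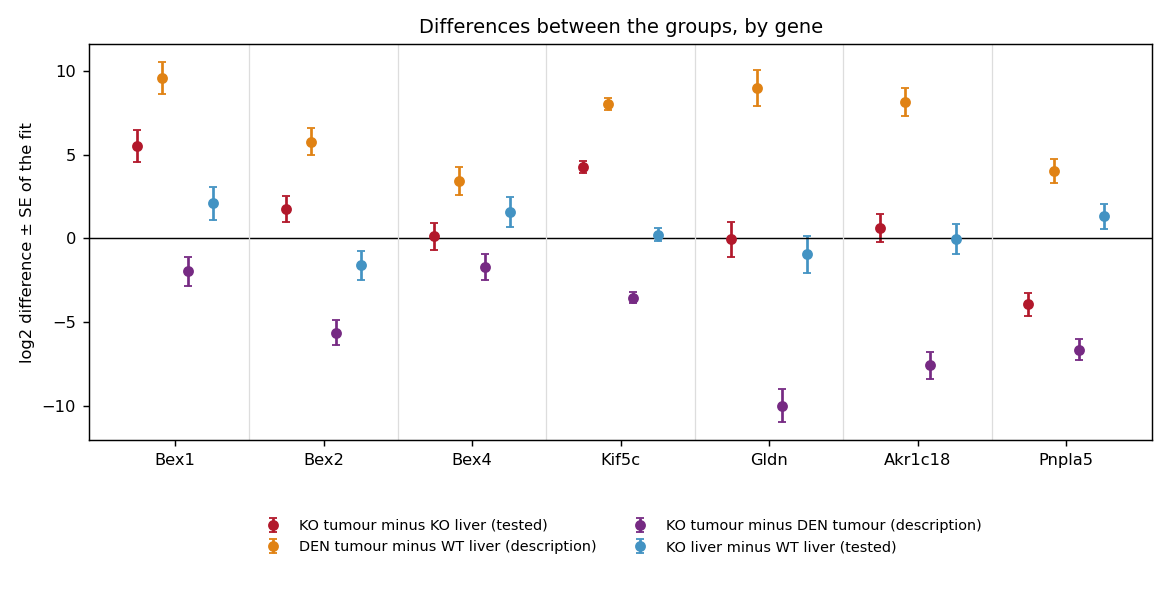
For each gene (x axis), points give the log2 difference between groups and bars the standard error of the limma fit; the tested comparisons are those of KO tumours with KO livers and of KO livers with WT livers, and the other 2 are descriptions. The KO tumour minus KO liver points are well above 0 for Bex1 and Kif5c, near 0 for Bex4, and at -3.93 for Pnpla5. Points show measured means also where a group was not well above background on any array (Bex2, Kif5c and Gldn in KO livers, Kif5c in WT livers, Pnpla5 in KO tumours), where they are no measured size.

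KO tumours were then compared with KO livers, which asks how these genes stood in tumours of the other model against liver of the same genotype. Bex1 and Kif5c were higher, Pnpla5 was lower, and the remaining 4 did not pass the test (limma moderated test, two-sided, Benjamini-Hochberg adjusted over 23736 genes). Thus 3 of 7 genes were called, against a background of 51.0% of all genes, 21.5% higher and 29.5% lower, so the share called was not above that of all genes. Bex1 averaged 1.28 ± 1.79 in KO tumours and -4.25 ± 0.29 in KO livers (SD; n = 5 and 4 mice), a log2 difference of 5.53 (95% confidence interval 3.53 to 7.53, limma adjusted p = 0.000124), and all 6 tumour arrays lay above all 4 livers, as for 17.2% of all genes. Kif5c averaged -1.77 ± 0.42 in KO tumours and -6.03 ± 0.27 in KO livers, a difference of 4.27 (interval 3.49 to 5.05, limma adjusted p = 2.01e-07), and was at least 7.67-fold higher in KO tumours. Pnpla5 averaged -8.13 ± 0.90 in KO tumours and -4.20 ± 0.91 in KO livers, a difference of -3.93 (interval -5.40 to -2.47, limma adjusted p = 0.000165). No fold is given, since no KO tumour and only 2 of 4 KO liver arrays were well above background. Before scaling, its processed intensity was 15.9 to 55.7 in KO livers. It was 2.33 to 2.88 in KO tumours of mice 1 to 3 and 18.2 to 19.7 in those of mice 4 and 5. KO tumour levels also entered the choice of the genes, so the Pnpla5 test is not independent of that choice. By value Pnpla5 stood the other way in DEN tumours, which were above WT livers.

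These 3 calls held within scan day 1, where both groups had arrays: the differences there were 5.18 for Bex1, 4.38 for Kif5c and -4.52 for Pnpla5. With the slide as a random block the limma adjusted p was 0.0241 for Bex1, 0.000155 for Kif5c and 0.0194 for Pnpla5.

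The other 4 genes did not pass in the same comparison. Bex4 differed by 0.13 (-1.61 to 1.87) and Akr1c18 by 0.64 (-1.14 to 2.42). Bex2 was not well above background on any KO liver array, and the bound was at least 1.03-fold higher in KO tumours (limma adjusted p = 0.078). Gldn was so on no KO liver and only 2 of 6 KO tumour arrays, and no fold is given. The lack of a call for Gldn sets mostly background against background, so it does not show equal levels. Akr1c18 turned on the KO tumour of mouse 4, at 2.20. Without that mouse the difference was -0.43, which did not pass (limma adjusted p = 0.279). Without the brightest slide, which held the KO tumours of mice 4 and 5, it was lower in KO tumours by value and by test (-0.75, limma adjusted p = 0.0361). Within scan day 1, where KO tumours of mice 1 to 3 remain, the difference was the same and the adjusted p was 0.0676.

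Between the livers, none of the 7 genes passed the test (limma, 0 of 7 called, 0 at an unadjusted p under 0.05), against 8.48% of all genes called, 1.83% higher and 6.65% lower, and 23.2% at the unadjusted threshold. On the first Bex1 probe KO livers differed from WT livers by 2.10 (-0.01 to 4.21), but only 1 of 4 WT liver arrays was well above background. The second Bex1 probe averaged -6.03 in KO livers and -5.96 in WT livers and was well above background on no liver array. Pnpla5 differed by 1.33 (-0.22 to 2.87), with 2 of 4 arrays of each liver well above background. Bex2, Kif5c and Gldn were well above background on no KO liver array, and no size is given for them. Kif5c was so on no WT liver array either, and Gldn on 1 of 4. For Kif5c and Gldn the lack of a call sets mostly background against background, so it does not show equal levels. Only for Bex4 did the arrays of the livers not overlap, with every KO liver above every WT liver and a difference of 1.58 (-0.25 to 3.42), and 10.8% of all genes showed KO livers wholly above. Akr1c18 was the most closely matched, at -2.71 ± 0.23 in KO livers and -2.66 ± 0.43 in WT livers (SD, n = 4 each), with an interval of -1.92 to 1.83 for the difference.

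Tumours of the same mouse were not always alike in these genes. In KO tumour mouse 5, Bex1 read 0.92 and -1.25 and Gldn -1.41 and -3.21 in the 2 tumours. In DEN tumour mouse 4, Bex1 read -1.07 and 1.52 and Akr1c18 6.11 and 4.79, while Kif5c read 1.20 and 1.46 and Bex2 0.17 and 0.19. In DEN tumour mouse 5, Bex1 read 3.67 and 5.93 and Bex4 0.27 and 2.72, while Gldn read 3.99 and 3.98. On its first probe Bex1 thus differed by 2.17 to 2.59 on the log2 scale within each of the 3 mice, beside an SD of 1.93 between the 5 DEN tumour mice. Its second probe read -1.81 and -3.95 in KO tumour mouse 5. In DEN tumours the second probe read -1.97 and -0.79 in mouse 4, a smaller difference, and 1.01 and 3.69 in mouse 5. Each DEN pair was scanned on 2 different days, and the part of that in these differences was not tested.

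**Figure D3:**
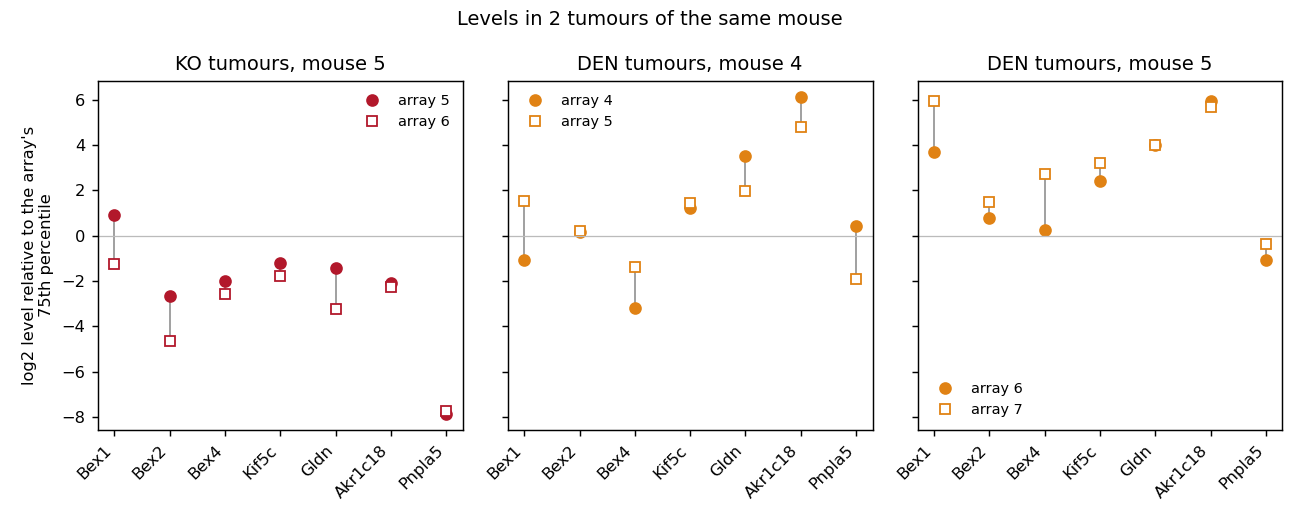
Levels of the 7 genes (x axis) in the 2 tumours of each mouse that gave 2 arrays (y axis, log2 level relative to the array's 75th percentile), with a line joining the tumours of 1 mouse. The lines are long for Bex1, shown by its first probe, in all 3 mice and short for Kif5c.

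Across the 18 mice the 7 genes fell into different patterns, given here as Pearson correlations of mouse means that hold the group differences within them. Gldn, Akr1c18 and Bex2 went together, with correlations of 0.91 to 0.93, and Bex1 went with Kif5c at 0.91. Bex1 and Bex4 correlated at 0.70, and Bex1 and Pnpla5 at 0.24. The genes most like each member over the same 18 mice were Nrip2, Cbr3 and Tspan8 for Bex1 (0.96 for each), Gpc3, Tff3 and Tmem191c for Bex2 (0.94 to 0.97), Msantd3, Smox and Bcl2l14 for Kif5c (0.96 to 0.98), Mitd1, Pwp1 and Pgm3 for Gldn (0.94 to 0.97) and Erich4, Ifi27l2b and Lpin3 for Akr1c18 (0.95 to 0.97). For Bex4 the first was an unnamed probe at chr1:152115983-152116042 in mm9 (0.99), which shared no run longer than 9 bases with the Bex4 probe, followed by Abcc4 (0.88). For Pnpla5, 2 of the 3 were transcripts without a gene symbol and the third was 5330439B14Rik (0.92).

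Most BEX and TCEAL relatives were higher in DEN tumours, but only some of those calls held with slide as a random block. Of 8 relatives tested, 7 were higher and 0 lower in DEN tumours against WT livers (limma adjusted p under 0.05), with a median difference of 2.35, against 21.4% of all genes called, 10.5% higher and 10.9% lower, and a median of 0.04. Tceal5 averaged 2.62 ± 2.33 in DEN tumours and -6.43 ± 0.30 in WT livers (SD; n = 5 and 4 mice), was measured on no WT liver array and was at least 221-fold higher (limma adjusted p = 1.28e-05). Tceal8 was higher by 3.31, Tceal9 by 2.16 and Bex3, which like Bex1 binds p75NTR, by 1.21. Against KO livers, KO tumours were higher for 5 of the 8 and lower for 0, where 21.5% and 29.5% of all genes were. The median was 1.18 against -0.22 for all genes. Tceal5 was at least 13.4-fold higher and Bex3 higher by 0.75, and Tceal8 had a value of -0.23 that did not pass. KO tumours were lower than DEN tumours for 5 of the 8 and higher for 0, against 37.4% of all genes lower and 19.8% higher. KO livers were higher than WT livers for 1 of the 8, Tceal8, where 1.83% of all genes were higher and 6.65% lower. That call was lost with the slide as a random block. With the slide as a random block, which gave 530 calls over all genes in place of 5091 for DEN tumours against WT livers, 2 of the 7 calls in that comparison were kept, Tceal5 and Tceal8, and Bex3 was among those lost (limma adjusted p = 0.216). The same block left 2 of 5 called in KO tumours against KO livers and 1 of 5 against DEN tumours.

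The relatives share a stretch of the X chromosome with other genes. Between 131743276 and 133243996 on mm9, 20 genes other than the members were tested. The 7 called higher in DEN tumours against WT livers, 2 of them with slide as a random block, were all BEX or TCEAL genes. Of the 12 others, 0 were called in either direction (limma), where 21.4% of all genes were. In KO tumours against KO livers, 2 of these 12 were higher and 2 lower, where 21.5% and 29.5% of all genes were.

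**Figure D4:**
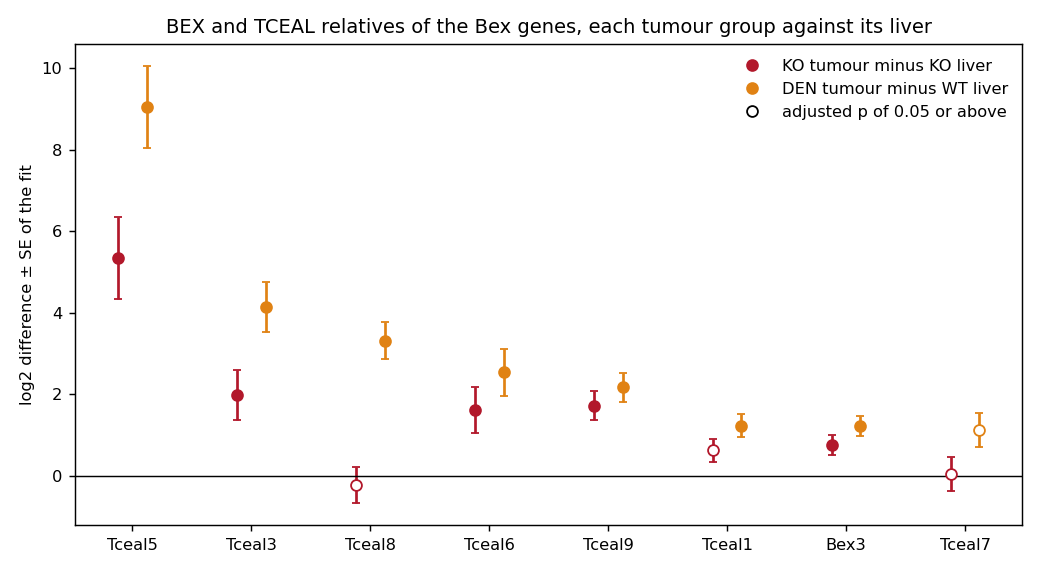
Log2 difference of the 8 BEX and TCEAL relatives (x axis, ordered by the value in DEN tumours) in KO tumours against KO livers and DEN tumours against WT livers; bars are standard errors of the limma fit and open points did not pass the adjusted threshold of 0.05. Tceal5 is plotted at its measured means although no liver array was well above background. All 8 DEN tumour points lie above 0, and Tceal8 and Tceal7 lie near 0 in KO tumours.

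Few other parts of the kinesin-1 motor were higher in DEN tumours. Of 10 kinesin-1 heavy chains, light chains and cargo partners, 2 were higher and 1 lower in DEN tumours against WT livers, where 10.5% of all genes were higher and 10.9% lower. The higher ones were Klc3, a kinesin light chain (2.99), and Mapk8ip1, a scaffold that links kinase signalling to the motor (1.15), and Trak1, a mitochondrial adaptor, was lower (-0.83). The other heavy chains had values of 0.20 for Kif5a and -0.05 for Kif5b that did not pass the test. Of the 10, 6 were higher and 1 lower, Klc4 (-0.95), in KO tumours against KO livers, where 21.5% and 29.5% of all genes were. Klc3 was higher by 3.23 and Kif5a, the second neuronal heavy chain, was at least 4.03-fold higher, whereas the broadly expressed Kif5b had a value of 0.44 (limma adjusted p = 0.25). With the slide as a random block Klc3 alone stayed called in DEN tumours, and 2 were higher and 0 lower in KO tumours.

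Neither the node-of-Ranvier partners of gliomedin nor the other olfactomedin-domain genes tested were called higher in DEN tumours. Of 14 node-of-Ranvier partners and olfactomedin-domain genes, 0 were higher and 2 lower against WT livers, Olfm3 (-3.04) and Olfm1 (-0.74), where 10.5% of all genes were higher and 10.9% lower. KO tumours were higher than KO livers for 6 and lower for 2, against 21.5% and 29.5% of all genes. The higher ones included Nfasc, which encodes the axonal gliomedin partner neurofascin (5.64), and Olfm1 (1.81), while Scn8a, a sodium channel of nodes (-2.15), and Olfml1 (-2.72) were lower. With the slide as a random block 0 of 14 were called in DEN tumours, and 4 were higher and 0 lower in KO tumours.

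The Akr1c genes beside Akr1c18 were lower or not called in DEN tumours. Of 14 Akr1c and steroid-reducing enzymes, 0 were higher and 3 lower in DEN tumours against WT livers, where 10.9% of all genes were lower, and none of the 3 calls held with the slide as a random block. Akr1c6, the main hepatic member of the cluster in mice, averaged 5.36 ± 1.08 in DEN tumours and 7.91 ± 0.07 in WT livers (limma difference -2.56, adjusted p = 0.00241), and Srd5a1, a steroid reductase, was lower by 3.57. Within the chromosome 13 cluster, 4089325 to 4585755 on mm9, 0 of 7 other genes were higher in DEN tumours and 2 were lower. In KO tumours against KO livers 10 of 14 were lower, against 29.5% of all genes, among them Akr1c14 (-5.30) and Akr1d1 (-5.81), and Akr1cl, which lies on chromosome 1, was at least 6.72-fold higher. KO tumours were lower than DEN tumours for 12 of 14, against 37.4% of all genes, among them Hsd17b2, which oxidises sex steroids (-2.26).

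Lipid droplet genes related to Pnpla5 were more often lower than higher in both tumours. In DEN tumours against WT livers 1 of 15 was higher and 5 lower, where 10.5% and 10.9% of all genes were, and with the slide as a random block Mgll alone stayed called. Likewise, in KO tumours against KO livers 1 was higher and 10 lower, against 21.5% and 29.5% of all genes. Abhd5, the coactivator of the lipase Pnpla2, was higher in DEN tumours (1.39) and lower in KO tumours (-1.44), the same pair of directions as Pnpla5, and the difference of the effects was -2.83 (limma interaction, adjusted p = 0.0016). Mgll, a monoglyceride lipase, was lower in both (-2.61 in DEN tumours and -4.01 in KO tumours), and Pnpla2, the main triglyceride lipase, was lower in KO tumours (-1.25). The nearest relative Pnpla3 had values of 1.99 in DEN tumours and -0.92 in KO tumours, neither of which passed. Between the livers, Cidea (-5.07) and Cidec (-3.48), both lipid droplet proteins, were lower in KO livers, and 0 of 15 were called there with the slide as a random block.

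Some other neuronal genes differed in DEN tumours. Of 18 listed, 12 were bright enough to test, and 3 were higher and 1 lower against WT livers, where 10.5% and 10.9% of all genes were. Tubb3, a neuronal tubulin, was at least 2.29-fold and Uchl1, a neuronal ubiquitin hydrolase, at least 1.44-fold higher, since no WT liver array measured either, and Syt1, a sensor of vesicle release, was lower (-1.43). None of these calls held with the slide as a random block. In KO tumours against KO livers 4 were higher and 2 lower, where 21.5% and 29.5% of all genes were. Tubb3 was at least 9.15-fold higher there, a bound because no KO liver array measured it. Ncam1, a cell adhesion molecule, was also higher (4.59), and Syt1 was lower (-1.60). KO tumours were higher than DEN tumours for 2 of the 12 and lower for 4, where 19.8% and 37.4% of all genes were. Tubb3 was higher in KO tumours than in DEN tumours (2.47), and the neurofilament gene Ina was lower (-1.71). The neuron markers Stmn2 and Nefl were too dim to test.

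Cell type markers moved with some of these comparisons. Of all genes, 21.5% were higher and 29.5% lower in KO tumours against KO livers. In DEN tumours against WT livers, 10.5% of all genes were higher and 10.9% lower. In KO tumours against KO livers 10 of 10 hepatocyte markers were lower (summed level 9.47 to 10.51 in KO tumours and 11.72 to 12.03 in KO livers) and 7 of 8 cholangiocyte markers were higher (5.51 to 7.91 and 0.86 to 1.52). In DEN tumours against WT livers no hepatocyte marker passed (11.01 to 11.85 in DEN tumours and 11.48 to 11.73 in WT livers), and 2 of 8 cholangiocyte markers were higher and 1 lower (2.83 to 5.10 and 0.75 to 1.66). Schwann cell markers, of which 0 of 6 passed in DEN tumours, summed to 0.01 to 1.84 there and -0.30 to 0.36 in WT livers. In KO tumours against KO livers 3 of 6 Schwann cell markers were higher and 1 lower (2.36 to 4.53 in KO tumours and -0.33 to -0.03 in KO livers), and 4 of 6 stellate cell and fibroblast markers were higher and 1 lower (5.53 to 7.02 and 2.33 to 2.89). Of the steroid-making cell markers 2 of 5 were higher and 0 lower in DEN tumours (1.38 to 3.92 and 0.38 to 1.10 in WT livers), and KO livers summed to 2.17 to 2.82. Mean levels in DEN tumours and WT livers were 2.23 and -0.16 for Cyp17a1 and -3.65 and -7.17 for Hsd3b1. They were -5.26 and -7.04 for Cyp11a1, -5.35 and -5.32 for Star and -1.41 and -0.65 for Nr5a1. Cyp11a1, which starts steroid synthesis, was well above background on 2 of 7 DEN tumour and 0 of 4 WT liver arrays. In DEN tumours against WT livers, macrophage and endothelium markers gave the same count, 2 of 5 higher and 0 lower. Of 5 neuron markers 2 were higher and 1 lower, and of 5 neuroendocrine markers 0 were called. Among stellate cell and fibroblast, T and B cell and adipocyte markers, 1 of 6, 1 of 6 and 1 of 2 were higher and 0 lower. The part of these cells in the values of the 7 genes and their relatives, such as Nfasc and Ncam1 in KO tumours, was not tested.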

How the data were processed

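Cy3-labelled RNA of 21 samples was read on one-colour Agilent arrays, 1 array per sample. Per the file headers, the deposited per-array files hold processed intensity, from which the scanner software had subtracted background, and its own marks for spots well above background; the software was Agilent Feature Extraction 10.7.3.1, per the submitters' processing notes. The series table deposited by the authors holds log2 values; the sources used here do not say how they were made, and each column correlated at 0.999 or more with its own array once each probe was centred on its median, with column medians of -0.57 to 0.30. It served as an alternative. From the deposited intensity, log2 was taken and the array's 75th percentile over 39429 non-control probes was subtracted. Outlier spots were left out and spots of a probe averaged. A probe was kept if 4 or more of the 21 arrays marked it well above background, with 1 probe per gene, the one with the highest mean signal. Probes were named by accession through RefSeq (26761 by the main accession, 102 by another one, 3746 by symbol), and 8820 kept the file's name.

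Tumours of 1 mouse were averaged, giving 18 mice. limma 3.58.1 in R 4.3.3 fitted the 4 groups together (lmFit and eBayes), with Benjamini-Hochberg adjustment over 23736 genes and a threshold of 0.05. The code was tested on simulated data. The arrays filled 6 slides, none with more than 1 group, scanned on 4 days, with WT livers alone on 1 of them. Nothing in the labels says more of how replicates were raised, so p-values measure the spread between these mice.

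The 7 genes, the 6 lists of relatives and partners and the 11 marker lists were chosen with earlier results of these data known. All 7 genes are named. Of each list, up to 2 higher and 2 lower called genes per comparison with the smallest adjusted p are named, with Bex3, Kif5a, Kif5b, Akr1c6, Akr1c14, Pnpla2 and Pnpla3 always; for likeness, the 3 most correlated genes. The values of 1 gene that this rule names are not reported here. Alternatives changed background correction, scaling, source of values, filter, outliers, slide, scan day, replication and probe. A summed marker level is log2 of the summed linear levels.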

Additional observations from a re-analysis of the deposited data

Results flagged for a closer look

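Among 32 sets of 4 to 5 mice examined for a value that stands apart, 1 did, where chance gives about 1 in 20. On the second Bex1 probe, KO liver mouse 4 read -6.63 while the other 3 KO livers read -5.82 to -5.86, and the probe was not well above background on any of them.

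For 21 of 41 relatives and partners named by the rule, the effect in KO tumours against KO livers differed from the effect in DEN tumours against WT livers (limma interaction, Benjamini-Hochberg adjusted p under 0.05), as it did for 30.8% of all 23736 genes. The rule names genes for small adjusted p in these comparisons, so the count is a description. Differences are the KO tumour effect minus the DEN tumour effect on the log2 scale, and WT livers, alone on 1 slide and scan day, enter all of them. In the BEX and TCEAL family Tceal8 differed by -3.54. Among the kinesin genes Kif5a (not well above background on any KO liver array) differed by 2.65, Klc1 by 1.52 and Klc4 by -0.80. Among gliomedin partners and olfactomedin-domain genes Nfasc differed by 4.95, Olfm1 by 2.55, Scn8a by -3.33 and Ank3, the nodal scaffold, by -1.05. Among the steroid-reducing enzymes Akr1cl differed by 5.93, with 0 of 4 KO liver, 0 of 4 WT liver and 1 of 7 DEN tumour arrays well above background, so that this is no measured size. In the same list Akr1d1 differed by -4.78, Akr1c14 by -3.37 and Akr1c12 by -2.20. Among lipid droplet genes Cidea differed by 6.61, Plin4 by 2.42, Pnpla6 by 0.91, Abhd5 by -2.83, Cideb by -2.23, Pnpla7 by -2.21, Mgll by -1.39 and Pnpla8 by -0.93. Among neuronal genes Ncam1 differed by 4.33.

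Pnpla5 itself differed by -7.97, with every KO tumour below every KO liver and every DEN tumour above every WT liver. It was well above background on no KO tumour array and on 2 of 4 arrays of each liver, so -7.97 is no measured size. This difference was not tested, because the DEN tumour levels chose the gene.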

How the results depend on the processing

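No paired analysis was possible because no label ties a tumour to a liver and the replicate numbers here follow the order of the samples. Slides held 1 group each and no other group shared the scan day of the WT livers, so a fixed slide term, and a scan day term for comparisons with WT livers, could not be fitted. Dim probes limit folds of Bex2, Kif5c and Pnpla5 to bounds, which rest on the lowest signal marked well above background on each array. For Gldn and Pnpla5 no bound is given between KO tumours and KO livers. Of the 7 genes, 3 to 4 were called in KO tumours against KO livers under every alternative and with each mouse left out, and 0 in KO livers against WT livers. Bex2, not measured in KO livers, was the fourth with each tumour array as its own sample, without KO liver mouse 3, and without KO tumour mouse 1 or 2. On scan day 1 alone the fourth was Gldn, with no array of either group well above background, so the call has no measured size. Akr1c18 reversed to -0.75 without the brightest slide.

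The median of the 7 genes in DEN tumours against WT livers was 4.87 with normexp and quantile normalization, and 7.72 to 8.27 with 1 mouse left out. In KO tumours against DEN tumours it was -3.05 with normexp and quantile normalization, -6.99 with scan day as a block or on scan day 1 alone, and -6.09 to -5.12 with 1 mouse left out. Of the 73 relatives, the slide as a random block (correlation 0.358) left 30 called in KO tumours against KO livers in place of 48, 4 in DEN tumours against WT livers in place of 25, 29 in KO tumours against DEN tumours in place of 47, and 0 in KO livers against WT livers in place of 7. Without the brightest slide the last count was 12. With 1 mouse left out these counts ran from 45 to 52, 19 to 31, 40 to 49 and 3 to 9; the last fell to 3 or 4 without any 1 of the 4 KO livers or WT liver mouse 3 or 4. Over all genes the slide block called 6627, 530, 8970 and 19 in place of 12098, 5091, 13585 and 2013. The last was 3221 without the brightest slide and 659 to 2389 with 1 mouse left out. With normexp and quantile normalization, 5977 genes were higher and 5737 lower in KO tumours against KO livers (5107 and 6991 with the main scaling), and 5962 higher and 6702 lower in KO tumours against DEN tumours (4702 and 8883).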
